A study of Danio rerio with 18 samples.

Results

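The genes of MHC antigen presentation were followed in the caudal fin of zebrafish (Danio rerio) at amputation and during regeneration, with and without a silencer named s1. Members were every gene whose name fitted a rule on gene symbols. They were the MHC class I and class II chains, beta-2-microglobulin, the invariant chain Cd74, the TAP peptide transporter, tapasin, the ERAP aminopeptidases, the calreticulins and the regulators ciita, nlrc5, rfx5, RFXANK and RFXAP. The rule found 58 gene IDs among the 32520 of the table, and 51 of them passed the filter on low values and were tested.

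Each of the 18 libraries was made from a pool of 10 caudal fins, amputated at 50% of their length, from fish aged 4 to 8 months. Wild-type (WT) pools came from siblings in the outbred Ekkwill (EK) strain, and knockout (KO) pools came from fish of EK origin that lack the regeneration-associated silencer s1. Both genotypes were collected at 0, 1 and 4 days post amputation (dpa), where 0 dpa is the fin clip taken at amputation, with 3 pools in each of the 6 groups. The silencer is a non-coding element with no row of its own in the table, so expression gave no direct check of the genotype labels. The series asks which genes are higher in the knockout at each time.

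MHC class I molecules are a heavy chain paired with beta-2-microglobulin. They are found on most nucleated cells and show CD8+ T cells peptides that the proteasome makes and the TAP transporter moves into the endoplasmic reticulum, where tapasin and calreticulin help to load them. MHC class II molecules are an alpha and a beta chain that the invariant chain Cd74 escorts to endosomes; dendritic cells, macrophages and B cells show them to CD4+ T cells. In mammals CIITA switches on class II genes and NLRC5 class I genes, both acting with the RFX5, RFXANK and RFXAP complex at MHC promoters.

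The libraries held 58.6 to 155 M reads assigned to genes. The 5 most abundant genes took 32.3% to 90.5% of the reads in 14 libraries but 2.71% to 10.9% in the other 4, called low-share libraries here: replicates 2 and 3 of WT at 0 dpa, replicate 2 of KO at 0 dpa and replicate 1 of KO at 1 dpa. Outside those 5 genes 10.5 to 75.5 M reads were left, with the least in WT at 4 dpa. Many members followed this share, so the main results are given with and without the low-share libraries; without them WT 0 dpa had 1 library. The defining epidermal genes cdh1 and TP63 were present, with mean normalised counts of 6384 and 5627 in WT fins at 0 dpa. All values below are normalised counts unless a log2 scale is named. Levels of different genes are not compared, because the counts were not divided by gene length. Fewer cells of a type and less RNA per cell cannot be told apart in these bulk samples.

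More MHC genes fell than rose after amputation in both genotypes. In WT, 30 of the 51 tested members fell and 3 rose from 0 to 1 dpa by limma at a Benjamini-Hochberg adjusted p under 0.05, against 21.1% and 19.1% of all tested genes. From 0 to 4 dpa 31 fell and 7 rose, against 29.6% and 25.9%. The KO fins had 18 falling and 4 rising members at 1 dpa, against 13.9% and 15.4%, and 27 falling and 7 rising at 4 dpa, against 25.7% and 23.3%. Median log2 changes over the members were -1.30 in WT and -0.73 in KO at 1 dpa, where the medians over all tested genes were -0.03 and -0.03. At 4 dpa the WT median was -1.41 and the KO median -1.06. Both genotypes shared 18 of the falling members at 1 dpa and 26 at 4 dpa. The comparisons with 0 dpa share their control libraries.

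The WT count was smaller when the low-share libraries were left out, which cut WT 0 dpa to 1 library. Group size and read share cannot be told apart in this fit without the low-share libraries. Without them 17 members fell and 3 rose at 1 dpa in WT, against 10.9% and 12.8% of all tested genes, and 22 fell and 3 rose at 4 dpa, against 20.2% and 18.8%. In KO 20 fell and 4 rose at 1 dpa, against 16.8% and 19.0%, and 26 fell and 8 rose at 4 dpa, against 25.3% and 23.9%. The median log2 change over the members was then -0.73 at 1 dpa and -0.86 at 4 dpa in WT, where the KO medians were -0.68 and -1.01.

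**Figure D1:**
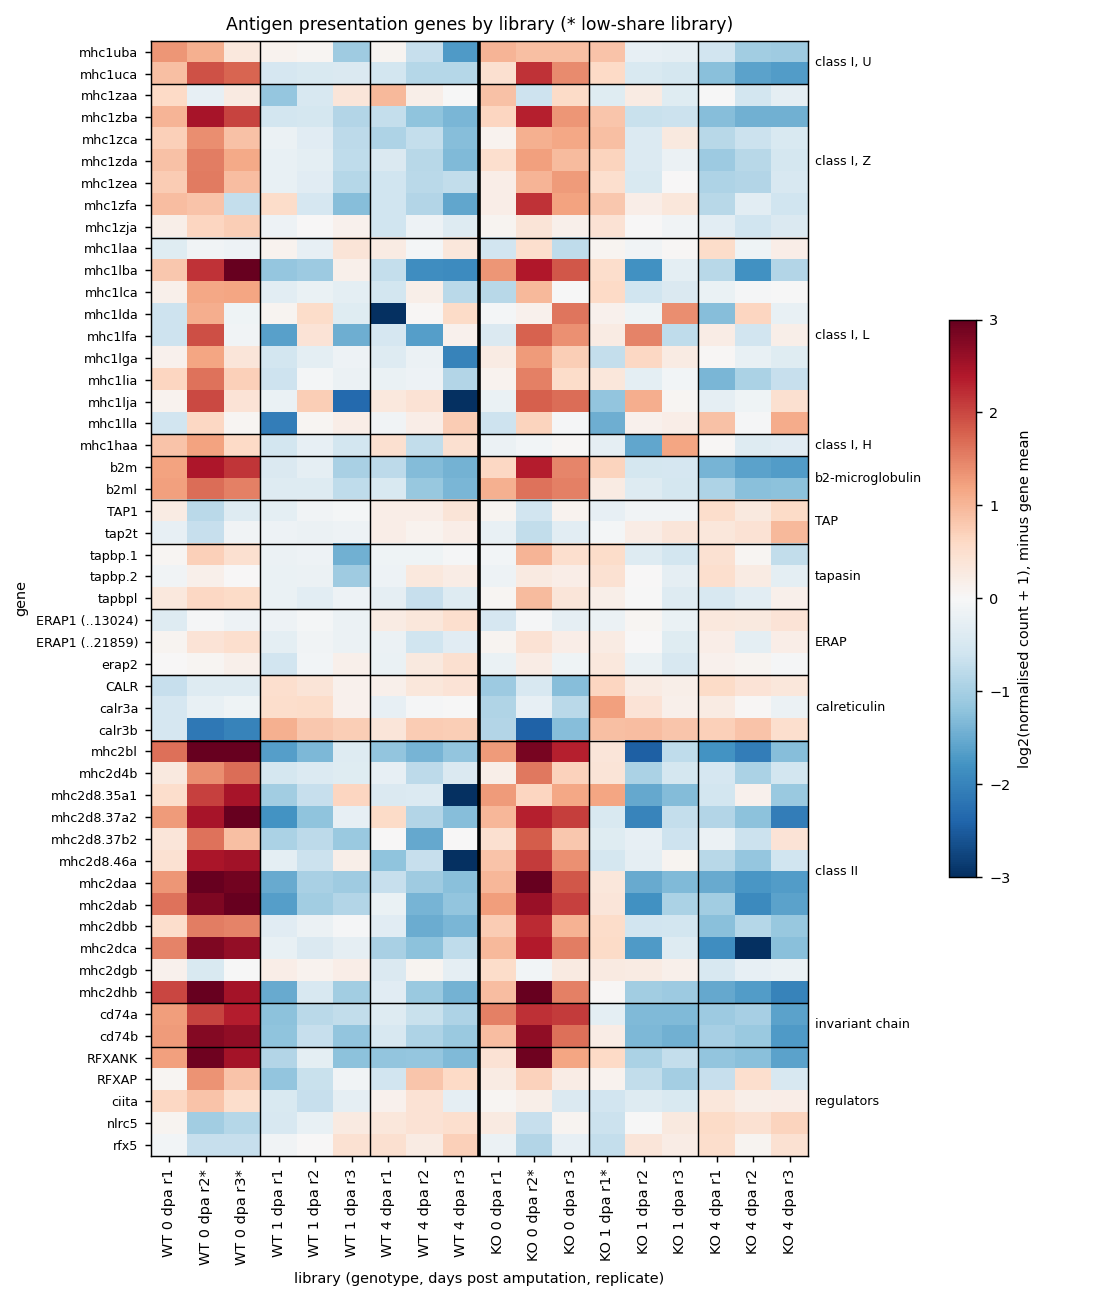
Heat map of each tested member (rows, grouped by role) in each of the 18 libraries (columns, grouped by genotype and days post amputation), as the log2 normalised count minus the gene's mean over libraries, with colours limited at -3 and 3 and an asterisk on low-share libraries. Class II chains apart from mhc2dgb, invariant chains and beta-2-microglobulin are high at 0 dpa and low at 1 and 4 dpa, and calr3b runs the other way.

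Most tested class II chains fell after amputation. Of 12 tested, 10 fell and 0 rose at 1 dpa in WT and 9 fell in KO, where 21.1% and 13.9% of all tested genes fell. At 4 dpa 11 fell in each genotype, against 29.6% in WT and 25.7% in KO. With the low-share libraries left out fewer fell in WT, where 0 dpa then had 1 library. In KO 9 then fell at 1 dpa and 10 at 4 dpa, against 16.8% and 25.3% of all tested genes. The 4 untested class II IDs were mhc2d8.45b1, mhc2dcb and mhc2dga, which had no read in any library, and mhc2d8.37a1, which stayed under the filter. A gene with no read could still have up to 3 reads, a normalised count of 1.17 to 7.47 depending on the library.

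mhc2daa (ENSDARG00000031745), is a class II alpha chain. Its WT values were 35179, 143175 and 104737 at 0 dpa, 4950, 7169 and 6739 at 1 dpa, and 8702, 6735 and 5911 at 4 dpa. The KO values were 28465, 171422 and 51924, then 18041, 4947 and 5665, then 4998, 4242 and 4396. Every 0 dpa library stood above every regenerating library. Taken 1 comparison at a time, this held for 26.9% and 30.5% of all tested genes in WT at 1 and 4 dpa. In KO it held for 18.8% and 31.2%. The same shares apply where falling members are said not to overlap below. The highest 0 dpa and the highest 1 dpa KO values of mhc2daa were both in low-share libraries. The WT mean was 15.01-fold lower at 1 dpa (log2 -3.70, SE 0.60, limma adjusted p = 0.00021) and 13.3-fold lower at 4 dpa (log2 -3.52, SE 0.60, adjusted p = 0.00018). In KO it was 8.79-fold lower at 1 dpa (log2 -2.99, SE 0.60, limma adjusted p = 0.00131) and 18.5-fold lower at 4 dpa (log2 -3.80, SE 0.60, adjusted p = 0.000103). Without the low-share libraries all 4 log2 changes kept their direction, at -2.50 and -2.32 in WT and -2.86 and -3.08 in KO. The KO changes were still called, and the WT changes then rest on 1 library at 0 dpa. With the share of the 5 most abundant genes as a covariate in the fit, the WT call at 4 dpa was lost.

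Among the beta chain genes, mhc2dab (ENSDARG00000079105) ran from 4603, 10402 and 11999 in WT fins at 0 dpa to 473, 731 and 820 at 1 dpa. At 4 dpa its WT values were 1304, 566 and 658. KO libraries gave 3587, 9082 and 6171, then 1940, 427 and 772, then 732, 396 and 491. Here too the 0 dpa libraries did not overlap the later ones. The log2 change in WT was -3.66 at 1 dpa (SE 0.51, limma adjusted p = 5.35e-05) and -3.40 at 4 dpa (SE 0.51, adjusted p = 6.5e-05), and in KO -2.76 and -3.49.

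The beta chain gene mhc2dhb (ENSDARG00000116524) fell alike, from 3693, 7829 and 5215 in WT fins at 0 dpa to 319, 660 and 443 at 1 dpa and 727, 424 and 344 at 4 dpa. In KO the values were 1730, 8247 and 2633, then 938, 442 and 433, then 314, 288 and 229. The WT means at 1 and 4 dpa were 11.8-fold and 11.2-fold below the 0 dpa mean, and the KO means 6.95-fold and 15.2-fold. Its log2 changes were -3.55 and -3.49 in WT (SE 0.48 each, limma adjusted p = 4.35e-05 and 3.41e-05).

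mhc2bl (ENSDARG00000074510), a class II beta-like gene, had the largest log2 fall of all members in WT. It was counted at 255, 719 and 1217 in WT fins at 0 dpa, 24.7, 30.9 and 60.9 at 1 dpa, and 34.6, 29.9 and 34.6 at 4 dpa. KO fins had 197, 583 and 408, then 104, 14.0 and 47.3, then 22.4, 18.2 and 32.5. The mean was 18.8-fold lower at 1 dpa in WT (log2 -4.04, SE 0.63, limma adjusted p = 0.00016) and 22.1-fold lower at 4 dpa (log2 -4.16, SE 0.63, adjusted p = 7.4e-05). In KO the log2 changes were -3.09 and -3.87, and without the low-share libraries the WT changes were -2.79 and -2.92.

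Other class II genes fell too. mhc2dca (ENSDARG00000114601) stood at 167, 423 and 374 in WT fins at 0 dpa and 118, 312 and 173 in KO fins at 0 dpa. WT libraries gave 50.8, 43.4 and 49.3 at 1 dpa, where KO libraries gave 88.5, 17.4 and 45.0. At 4 dpa it stood at 29.7, 24.9 and 34.6 in WT and 15.6, 5.20 and 24.3 in KO, with log2 changes of -3.29 and -3.76 from 0 dpa (SE 0.56 each, limma adjusted p = 0.000186 and 6.64e-05). mhc2d8.37a2 (ENSDARG00000070206) was at 93.0, 213 and 317 in WT fins at 0 dpa and at 10.2, 15.8 and 31.9 at 1 dpa, a log2 change of -3.34 (SE 0.60, limma adjusted p = 0.000536). In KO it fell from 75.7, 192 and 162 to 27.1, 8.72 and 22.5, and at 4 dpa the values were 56.9, 19.9 and 14.8 in WT and 20.1, 15.6 and 8.12 in KO. mhc2d8.46a (ENSDARG00000075932) gave 17.97, 74.7 and 78.5 in WT fins at 0 dpa and 4.95, 7.47 and 0 at 4 dpa, where 3 reads equal 7.42 to 7.47; its WT fall was called at both times, but not without the low-share libraries. The WT values at 1 dpa were 10.2, 7.88 and 14.5, and KO libraries had 23.9, 57.7 and 34.7, then 8.56, 10.5 and 13.5, then 6.71, 5.20 and 8.12. mhc2d4b, mhc2dbb and mhc2d8.37b2 fell in both genotypes at both times, with log2 changes from -1.17 to -2.42. mhc2d8.35a1 passed the test in WT at 4 dpa alone. Over all libraries mhc2d4b ranged from 184 to 1134, mhc2dbb from 54.8 to 732, mhc2d8.37b2 from 24.9 to 260 and mhc2d8.35a1 from 0 to 43.2, while mhc2d8.37a1 reached 9.89. Without the low-share libraries the WT calls of mhc2dca, mhc2d4b and mhc2dbb were lost at 1 dpa, those of mhc2d8.37a2 and mhc2d8.35a1 at 4 dpa, and those of mhc2d8.37b2 in all 4 comparisons.

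One class II gene stood apart in size. mhc2dgb (ENSDARG00000104635) was at 205, 137 and 186 in WT fins at 0 dpa, 216, 203 and 217 at 1 dpa, and 139, 199 and 156 at 4 dpa. KO values were 278, 178 and 226, then 228, 224 and 209, then 134, 160 and 165. Its WT log2 differences were 0.29 at 1 dpa (95% interval -0.14 to 0.71) and -0.09 at 4 dpa, neither called, and in KO it fell by 0.55 at 4 dpa (SE 0.20, limma adjusted p = 0.0332). In the gene order of the GRCz12tu RefSeq annotation mhc2dgb lies next to mhc2dhb, which in turn lies next to mhc2daa. Zebrafish lines differ in which MHC genes they carry, and near-identical copies can share reads; how that bears on single class II or class I genes was not tested.

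The invariant chain genes fell as the class II chains did. cd74a (ENSDARG00000009087) was at 109185, 185469 and 233750 in WT fins at 0 dpa, 19469, 26136 and 27235 at 1 dpa and 34943, 28705 and 23974 at 4 dpa. KO libraries had 130152, 209934 and 194392, then 37195, 18384 and 18325, then 21434, 22995 and 15036. No later library reached an 0 dpa one. The fall was 7.25-fold at 1 dpa in WT (log2 -2.81, SE 0.35, limma adjusted p = 1.81e-05) and 7.23-fold in KO (log2 -2.91, adjusted p = 1.22e-05). At 4 dpa it was 6.03-fold in WT and 8.99-fold in KO.

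The second copy, cd74b (ENSDARG00000036628), went from 10698, 30069 and 28094 in WT fins at 0 dpa to 1919, 2726 and 1959 and then 3198, 2325 and 2043. In KO it went from 8439, 28128 and 13965 to 5182, 1752 and 1642 and then 2218, 2059 and 1370. On the log2 scale cd74b changed by -3.26 and -3.07 in WT fins and by -2.60 and -3.02 in KO fins (SE 0.48 each), all called by limma, with and without the low-share libraries.

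**Figure D2:**
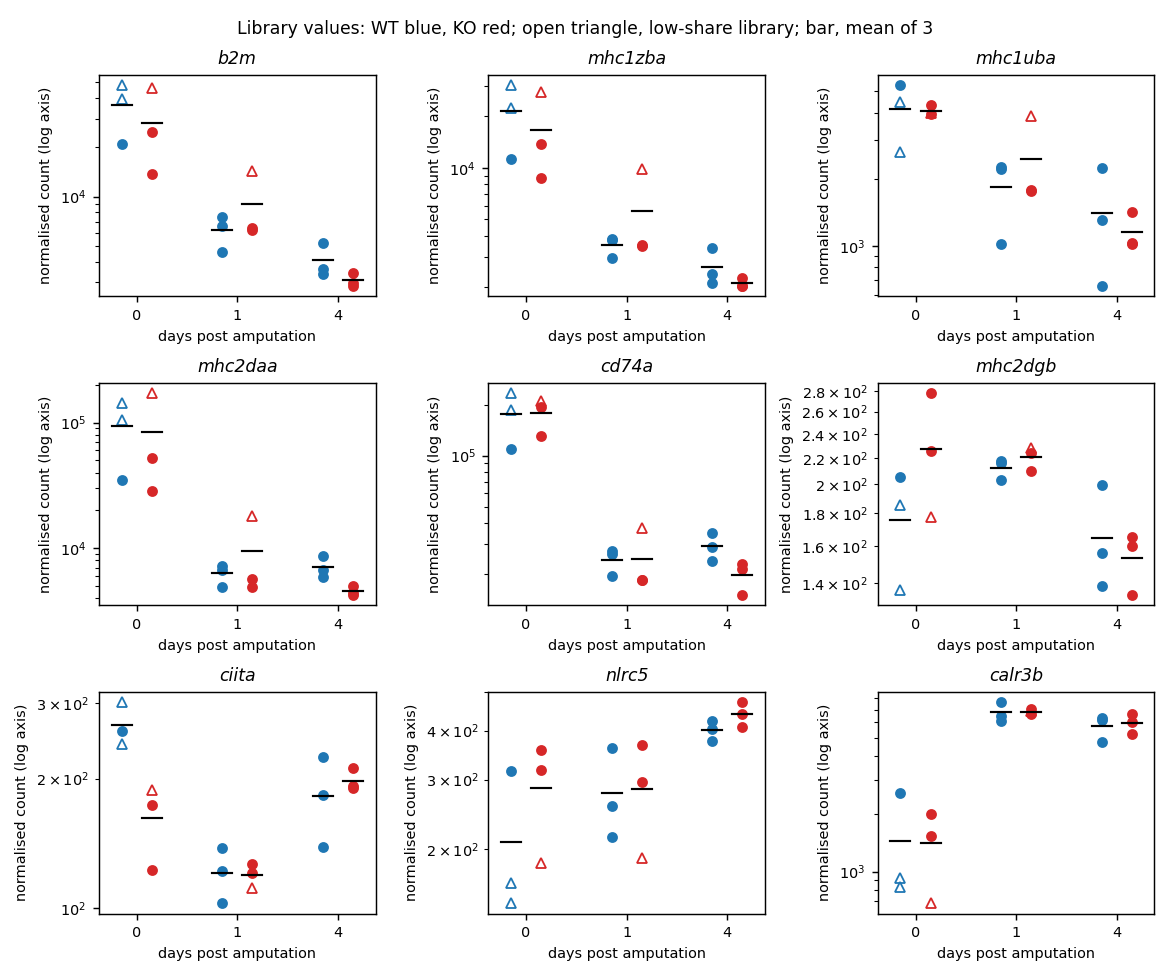
Normalised counts (log axis) of 9 members against days post amputation, with WT in blue, KO in red, 1 point per pool of 10 fins, open triangles for low-share libraries and bars at the mean of 3. b2m, mhc1zba, mhc2daa and cd74a lie highest at 0 dpa, mhc2dgb varies between 134 and 278 throughout, and calr3b lies lowest at 0 dpa.

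Beta-2-microglobulin, the light chain of class I molecules, fell as well. b2m (ENSDARG00000053136) was at 20898, 48394 and 39500 in WT fins at 0 dpa, 6615, 7473 and 4560 at 1 dpa, and 5212, 3623 and 3379 at 4 dpa. KO fins had 13768, 45990 and 24718, then 14362, 6264 and 6387, then 3416, 2970 and 2826. The groups did not overlap in WT, whereas the low-share KO library at 1 dpa reached above the lowest 0 dpa KO library. The log2 changes in WT were -2.49 at 1 dpa (SE 0.41, limma adjusted p = 0.000275) and -3.10 at 4 dpa (adjusted p = 2.61e-05). In KO they were -1.59 (limma adjusted p = 0.00845) and -3.03 (adjusted p = 2.98e-05). The related gene b2ml had log2 changes of -1.98 and -2.46 in WT fins and of -1.63 and -2.54 in KO fins, with library values between 3027 and 25116.

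Class I heavy chains fell in part. Of 19 tested heavy chains 10 fell in WT at 1 dpa and 12 at 4 dpa, against 21.1% and 29.6% of all tested genes. In KO 4 and 10 fell, against 13.9% and 25.7%, with 0 rising in any of the 4 comparisons. With the low-share libraries left out fewer fell in WT, where 0 dpa then had 1 library. In KO 6 and 11 then fell, against 16.8% and 25.3% of all tested genes. There 1 rose at 4 dpa, against 23.9%. The U lineage, which holds the classical class I genes of zebrafish, had both tested members fall in WT. mhc1uba ranged from 655 to 5368 over all libraries and mhc1uca from 242 to 3511, and their log2 changes at 4 dpa were -1.68 and -2.27 in WT fins, where KO fins gave -1.84 and -2.88. The other U gene, mhc1uma, had reads in 1 library only, a normalised count of 12.4 in WT 4 dpa replicate 1.

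In the Z lineage stands the heavy chain gene mhc1zba (ENSDARG00000036588). Its WT values were 11241, 30707 and 22464 at 0 dpa, 3752, 3842 and 2969 at 1 dpa, and 3369, 2394 and 2120 at 4 dpa. KO values were 8662, 27776 and 13837, then 9785, 3478 and 3531, then 2273, 2020 and 2037. All regenerating WT libraries lay below all 0 dpa ones, and at 1 dpa the KO groups overlapped through the low-share library. The mean was 6.1-fold lower in WT at 1 dpa (log2 -2.50, SE 0.44, limma adjusted p = 0.000425) and 2.99-fold lower in KO (log2 -1.60, SE 0.44, adjusted p = 0.0115). At 4 dpa it was 8.17-fold and 7.94-fold lower.

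Other Z genes fell less. mhc1zca, mhc1zda and mhc1zea fell at 4 dpa, with log2 changes of -1.98, -2.05 and -1.79 in WT fins and of -1.42, -1.72 and -1.59 in KO fins, and these genes and mhc1zba are neighbours in the RefSeq order. mhc1zfa and mhc1zja also fell at 4 dpa in both genotypes, the WT call of mhc1zja being lost without the low-share libraries, whereas mhc1zaa, between 66.1 and 292, passed the test in no comparison over time. mhc1zka had no read in any library. The ranges over the 18 libraries were 111 to 720 for mhc1zca, 139 to 1008 for mhc1zda, 381 to 2153 for mhc1zea, 56.9 to 758 for mhc1zfa and 203 to 514 for mhc1zja.

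The L lineage is a nonclassical class I group of fishes. Among its 9 genes 3 fell in WT at 1 dpa and 4 at 4 dpa, against 21.1% and 29.6% of all tested genes. mhc1lba (ENSDARG00000016227) was at 37.1, 97.3 and 187 in WT fins at 0 dpa, 8.71, 9.20 and 23.2 at 1 dpa, and 12.4, 4.98 and 4.95 at 4 dpa. KO values were 53.9, 114 and 77.9, then 30.7, 5.23 and 16.9, then 11.2, 5.20 and 10.8. The log2 changes were -2.73 and -3.51 in WT (SE 0.64, limma adjusted p = 0.00361 and 0.000321) and -2.38 and -3.04 in KO. The WT values of 4.98 and 4.95 at 4 dpa lay under the 7.42 to 7.47 that 3 reads equal there. With the share of the 5 most abundant genes as a covariate, neither WT change was called. Without the low-share libraries the WT difference at 1 dpa was -1.51 and not called. mhc1lia fell at 4 dpa in both genotypes, with log2 changes of -1.41 in WT and -1.72 in KO. mhc1lca fell in WT alone, and mhc1lga in WT at 4 dpa alone; neither call held without the low-share libraries, and the interaction of genotype with time was called for neither gene. mhc1laa, mhc1lda, mhc1lfa, mhc1lja, mhc1lla and the H lineage gene mhc1haa passed no test over time, and all 6 stayed at or under a normalised count of 104. Their ranges were 36.3 to 91.7 for mhc1laa, 0 to 31.6 for mhc1lda, 4.98 to 70.8 for mhc1lfa, 0 to 104 for mhc1lja, 4.36 to 47.3 for mhc1lla and 5.23 to 41.3 for mhc1haa. The L genes with a called fall ranged from 61.3 to 252 for mhc1lca, from 4.95 to 56.8 for mhc1lga and from 49.2 to 398 for mhc1lia.

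Genes that load peptides onto class I took mixed courses. Of 11 tested in WT at 4 dpa, 2 TAP genes, 2 calreticulins and 1 ERAP1 gene rose, and 1 tapasin and 1 ERAP1 gene fell. Of all tested genes 25.9% rose and 29.6% fell in that comparison. The transporter gene TAP1 was at 433, 207 and 280 in WT fins at 0 dpa, 297, 340 and 352 at 1 dpa, and 418, 421 and 475 at 4 dpa. KO fins had 388, 244 and 394, then 305, 338 and 340, then 526, 448 and 547. TAP1 rose by a log2 of 0.58 in WT (SE 0.23, limma adjusted p = 0.0449) and 0.59 in KO (adjusted p = 0.0435) from 0 to 4 dpa. Without the low-share libraries the WT difference was 0.01 and not called, and the KO change was 0.37 and called. tap2t, a TAP2 gene with library values of 96.2 to 314, rose at 4 dpa in WT (log2 0.51, limma adjusted p = 0.0478; 0.42 and not called without the low-share libraries) and in KO (log2 1.00, adjusted p = 0.0011). edgeR and DESeq2 called neither TAP1 nor tap2t in WT at 4 dpa, and called both in KO. tap2a had no read in any library.

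Of 3 tapasin genes 2 fell in WT at 1 dpa and 1 at 4 dpa, against 21.1% and 29.6% of all tested genes. In KO 0 and 1 fell, against 13.9% and 25.7%. tapbpl, a tapasin relative, fell in WT at 1 dpa (log2 -0.72, limma adjusted p = 0.0219), a call lost without the low-share libraries. It fell at 4 dpa, with log2 changes of -0.95 in WT and -0.68 in KO, the latter not called without the low-share libraries. tapbp.1 fell at 1 dpa in WT alone (log2 -1.01, SE 0.39, limma adjusted p = 0.0491), a call lost without the low-share libraries and by edgeR, and tapbp.2 passed no test over time. Of the aminopeptidases that trim peptides, the ERAP1 gene ENSDARG00000013024 rose at 4 dpa (log2 0.56 in WT and 0.61 in KO), and the ERAP1 gene ENSDARG00000021859 fell in WT, with log2 changes of -0.52 and -0.71 at 1 and 4 dpa, neither called without the low-share libraries. erap2 passed no test over time. These loading and trimming genes ranged from 86.9 to 481 for tapbp.1, 84.0 to 250 for tapbp.2, 120 to 369 for tapbpl, 141 to 282 and 234 to 506 for the ERAP1 genes in that order, and 157 to 326 for erap2.

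The calreticulins, chaperones that serve many glycoproteins beside class I, rose. calr3b (ENSDARG00000102808) was at 2582, 835 and 925 in WT fins at 0 dpa, 7691, 6474 and 6132 at 1 dpa, and 4749, 6299 and 6191 at 4 dpa. KO values were 1991, 682 and 1531, then 6855, 7034 and 6612, then 6052, 6635 and 5216. All later libraries stood above all 0 dpa ones. Taken 1 comparison at a time, this held for 24.7% and 28.2% of all tested genes in WT at 1 and 4 dpa. In KO it held for 18.3% and 28.7%. The log2 change of calr3b at 1 dpa was 2.42 in each genotype (SE 0.38, limma adjusted p = 0.000156 in WT and 0.00016 in KO). CALR rose by 0.82 and 0.79 in WT and by 1.32 and 1.39 in KO at 1 and 4 dpa. calr3a rose at 1 dpa in both genotypes and at 4 dpa in KO. CALR ranged from 531 to 2015 and calr3a from 1357 to 5947 over the libraries.

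**Figure D3:**
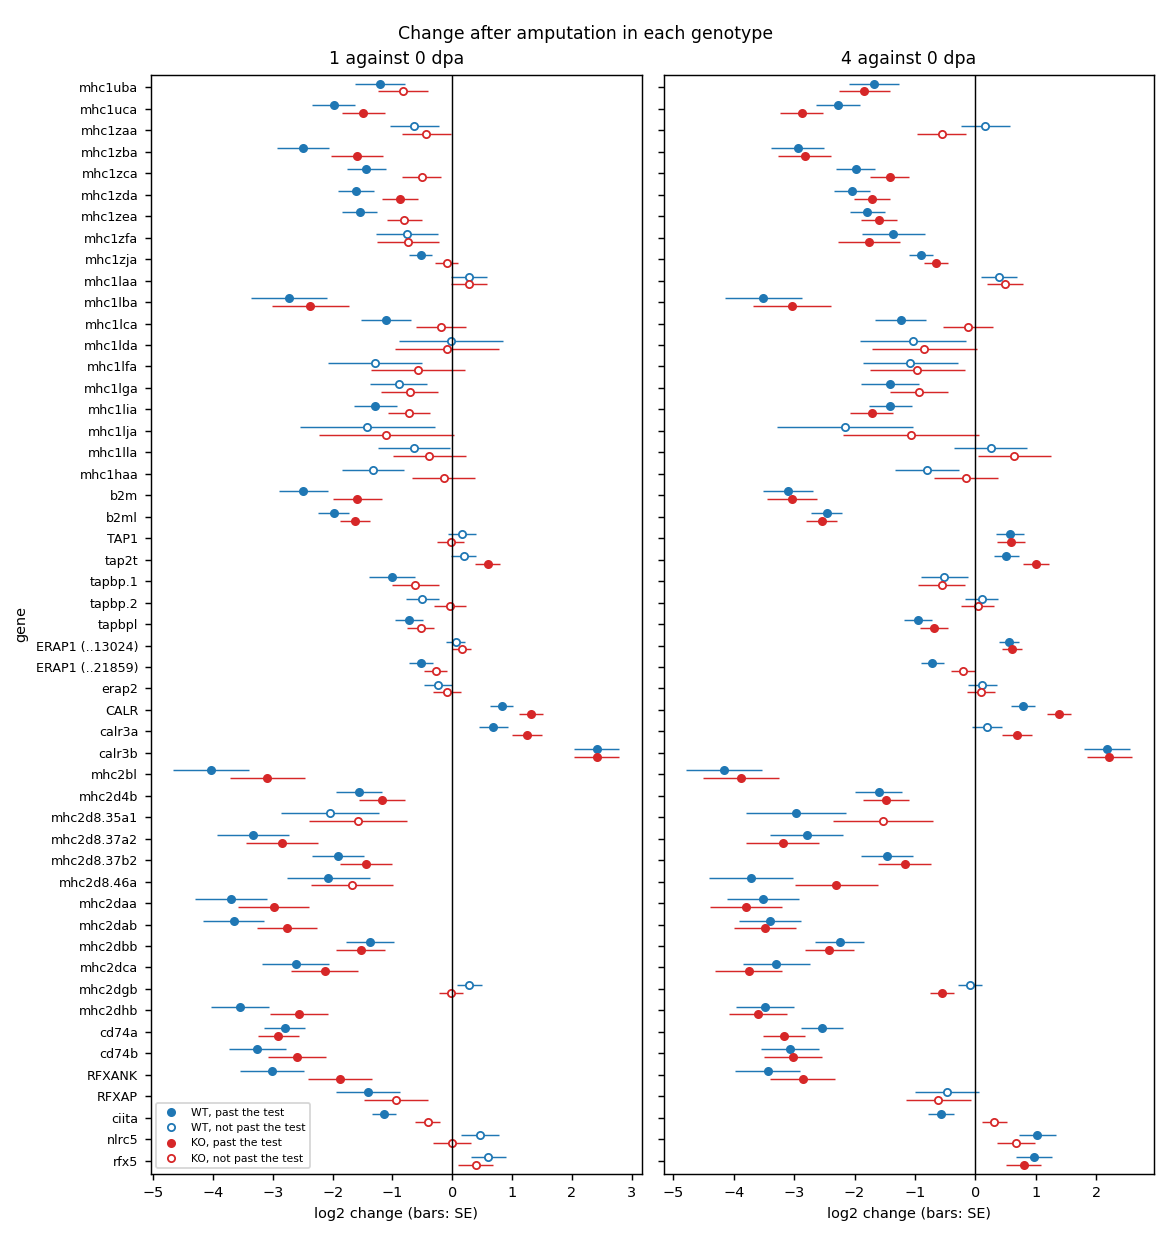
Log2 change of every tested member from 0 to 1 dpa (left) and from 0 to 4 dpa (right), with WT in blue, KO in red, bars for the SE and filled points for changes past the limma test. The class II chains, invariant chains and beta-2-microglobulin lie left of 0 in both genotypes apart from mhc2dgb, and the calreticulins lie right of it.

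The regulators took separate courses. RFXANK (ENSDARG00000016730), a subunit of the RFX complex, fell from 584, 1870 and 1413 in WT fins at 0 dpa to 134, 201 and 106 at 1 dpa and 109, 110 and 98.9 at 4 dpa. In KO it went from 336, 1879 and 569 to 375, 127 and 151 and then 108, 104 and 81.2. The log2 changes were -3.02 and -3.44 in WT (SE 0.54, limma adjusted p = 0.000491 and 9.62e-05) and -1.87 and -2.86 in KO (adjusted p = 0.015 and 0.000463).

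Another RFX subunit gene, rfx5 (ENSDARG00000063258), was at 131, 85.5 and 85.0 in WT fins at 0 dpa and 193, 164 and 228 at 4 dpa, a rise of 0.97 on the log2 scale (SE 0.29, limma adjusted p = 0.0106). At 1 dpa WT had 128, 139 and 188. KO values were 121, 74.1 and 117, then 83.5, 177 and 162, then 200, 147 and 191, with a rise of 0.80 at 4 dpa (SE 0.29, limma adjusted p = 0.0328). The WT difference at 4 dpa was 0.56 and not called once the low-share libraries were left out. RFXAP, the remaining subunit, lay between 2.90 and 21.6 and fell in WT at 1 dpa (log2 -1.41, SE 0.54, limma adjusted p = 0.0463), but not without the low-share libraries.

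nlrc5 (ENSDARG00000024631), the class I regulator of mammals, was at 316, 145 and 164 in WT fins at 0 dpa, 215, 258 and 361 at 1 dpa, and 376, 404 and 423 at 4 dpa. KO fins had 358, 184 and 317, then 190, 296 and 367, then 441, 408 and 473. It rose in WT at 4 dpa by 1.03 on the log2 scale (SE 0.31, limma adjusted p = 0.0109), and without the low-share libraries the difference was 0.34 and not called. In KO the difference at 4 dpa was 0.68 (95% interval 0.02 to 1.34, limma adjusted p = 0.0833).

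ciita (ENSDARG00000090851), the class II regulator, was at 258, 302 and 240 in WT fins at 0 dpa, 122, 102 and 138 at 1 dpa, and 183, 224 and 139 at 4 dpa. KO values were 173, 189 and 123, then 111, 126 and 120, then 211, 190 and 192. It fell in WT by 1.14 at 1 dpa (SE 0.21, limma adjusted p = 0.000576) and by 0.57 at 4 dpa (adjusted p = 0.0283), and without the low-share libraries the 4 dpa difference was -0.53 and not called. In KO the log2 difference was -0.41 at 1 dpa (limma adjusted p = 0.151) and 0.31 at 4 dpa (adjusted p = 0.227), and between 1 and 4 dpa ciita rose by 0.72 (adjusted p = 0.0174).

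Changes between 1 and 4 dpa were fewer. In WT 1 member was called, the ERAP1 gene ENSDARG00000013024, which rose by 0.50 on the log2 scale (SE 0.16, limma adjusted p = 0.0499), where 7.17% of all tested genes rose and 6.61% fell. In KO 9 members fell and 2 rose, against 16.2% and 11.6%. The 9 were b2m, b2ml, mhc1zba, mhc1zca, mhc1zda, mhc1zja, mhc1uca, mhc1lia and mhc2dca, and the risers were ciita and the same ERAP1 gene. Leaving out KO 1 dpa replicate 1, a low-share library, left 0 members called, whereas leaving out all 4 low-share libraries left 7 called, 6 of them among the 11.

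Between the genotypes 0 of the 51 members were called at 0, 1 or 4 dpa, where limma called 0.101%, 0.00439% and 0.0351% of all tested genes. For the average over times it was also 0, against 0.140%. On the recovered reads edgeR called 0 members in these 4 comparisons, against 0.136%, 0.00439%, 0.0176% and 0.145% of all tested genes. DESeq2 also called 0, against 0.421%, 0.0878%, 0.0659% and 0.246%. At an unadjusted p under 0.05 there were 2 members at 0 dpa (ciita and CALR), 1 at 1 dpa (mhc1zca), 0 at 4 dpa and 1 for the average (mhc1zfa), against 4.80%, 2.04%, 4.06% and 3.20% of all tested genes. These few names were chosen after their values were seen.

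The intervals of the differences were wide. For b2m the KO minus WT log2 difference was -0.45 at 0 dpa (95% interval -1.33 to 0.43), 0.45 at 1 dpa (-0.43 to 1.33) and -0.38 at 4 dpa (-1.26 to 0.49). For mhc2daa it was -0.35 (-1.62 to 0.91), 0.36 (-0.90 to 1.62) and -0.63 (-1.89 to 0.63), and for cd74a 0.06 (-0.68 to 0.79), -0.05 (-0.78 to 0.69) and -0.57 (-1.30 to 0.17). At 1 dpa 44 of the 51 members had a positive difference, with a median of 0.20 against 0.03 over all tested genes. Without the low-share libraries, among them KO 1 dpa replicate 1, that median was 0.03.

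ciita had the smallest unadjusted p between the genotypes at 0 dpa. The KO values of 123 to 189 lay below the WT values of 240 to 302, a 1.65-fold lower mean (log2 -0.74, 95% interval -1.18 to -0.30, limma adjusted p = 0.47). At 1 and 4 dpa its differences were -0.01 (-0.45 to 0.43) and 0.14 (-0.29 to 0.58). No genotype-by-time interaction was called for any member, against 0.00% of all tested genes at each time; at an unadjusted p under 0.05 there was 1 member at 1 dpa and there were 2 at 4 dpa, against 4.17% and 3.90%. edgeR called 0 members for both interactions, against 0.00% and 0.00%, and DESeq2 0, against 0.0220% and 0.00439%.

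The KO and WT libraries did not overlap for 2 members at 0 dpa, ciita and mhc1haa, both lower in KO, where 3.14% of all tested genes were lower and 4.00% higher. At 1 dpa they did not overlap for 2 members, tap2t and mhc2d8.37b2, both higher in KO, where 4.42% were higher and 4.03% lower. At 4 dpa they did not overlap for 7 members. cd74a, mhc2daa, mhc2dca, mhc2dhb, mhc1uca and mhc1zaa were lower in KO, 6 members where 5.46% of all tested genes did so, and tap2t was higher, 1 member against 5.49%. With the share of the 5 most abundant genes as a covariate, limma called 3 members lower in KO at 4 dpa, against 0.900% of all tested genes. They were mhc1uca (log2 -0.98, adjusted p = 0.0087), mhc2daa (-1.004, adjusted p = 0.0352) and b2m (-0.64, adjusted p = 0.0418). At 4 dpa the share was 87.5% to 90.5% in WT and 79.0% to 82.9% in KO, so genotype and share cannot be told apart there. In either direction this setting called 1.08% of all tested genes at 4 dpa, against 0.0351% in the main test.

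**Figure D4:**
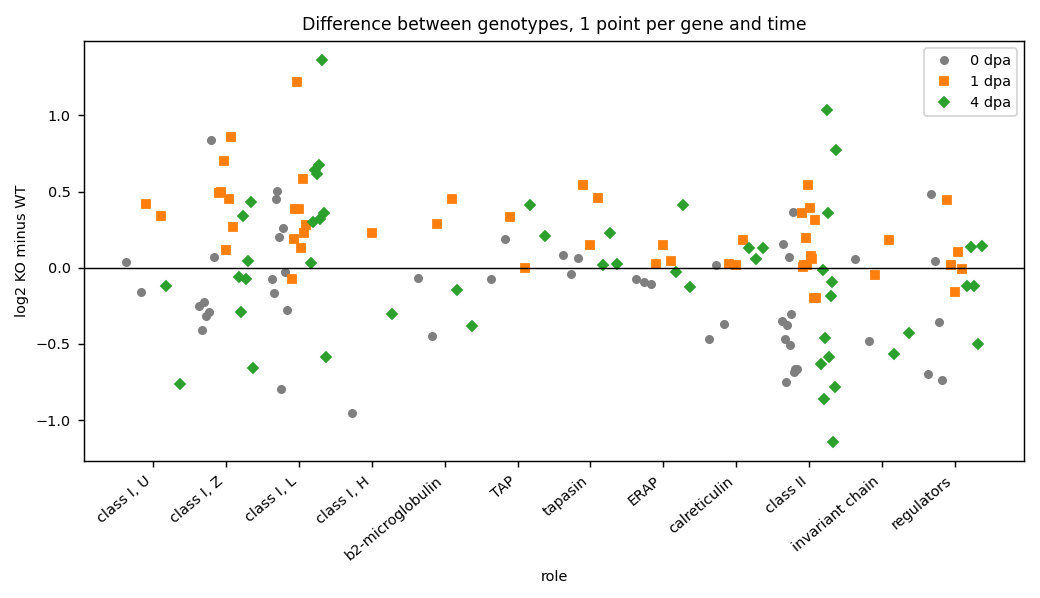
KO minus WT log2 difference of every tested member by role (horizontal axis), with 1 point per gene at 0 dpa (grey circles), 1 dpa (orange squares) and 4 dpa (green diamonds). Points lie on both sides of 0 at 0 and 4 dpa, most 1 dpa points lie above 0, and none passed the limma test.

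Over the 18 libraries many members followed the share of reads in the 5 most abundant genes. The rank correlation is given as a description because share, time and scaling are common to these libraries. It was negative for 39 of the 51 members and positive for 12. The median was -0.63, and some values were near 0, such as 0.02 for erap2. The correlation was -0.90 for b2m, -0.90 for RFXANK and -0.92 for mhc1zca, 0.83 for nlrc5, 0.88 for rfx5 and -0.03 for ciita. The share was higher at 1 and 4 dpa than at 0 dpa in most libraries, so time and share moved together. With the share as a covariate 16 members fell and 3 rose in WT at 1 dpa, against 11.3% and 14.0% of all tested genes, and 11 fell and 3 rose at 4 dpa, against 10.0% and 11.8%. In KO 19 fell and 3 rose at 1 dpa, against 17.9% and 22.3%, and 22 fell and 7 rose at 4 dpa, against 18.6% and 18.6%. Main calls lost with this covariate in WT at 4 dpa included those of mhc2daa, mhc2dca, mhc1uba, mhc1zca, mhc1zea and calr3b. In KO at 4 dpa they included those of rfx5 and TAP1.

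**Figure D5:**
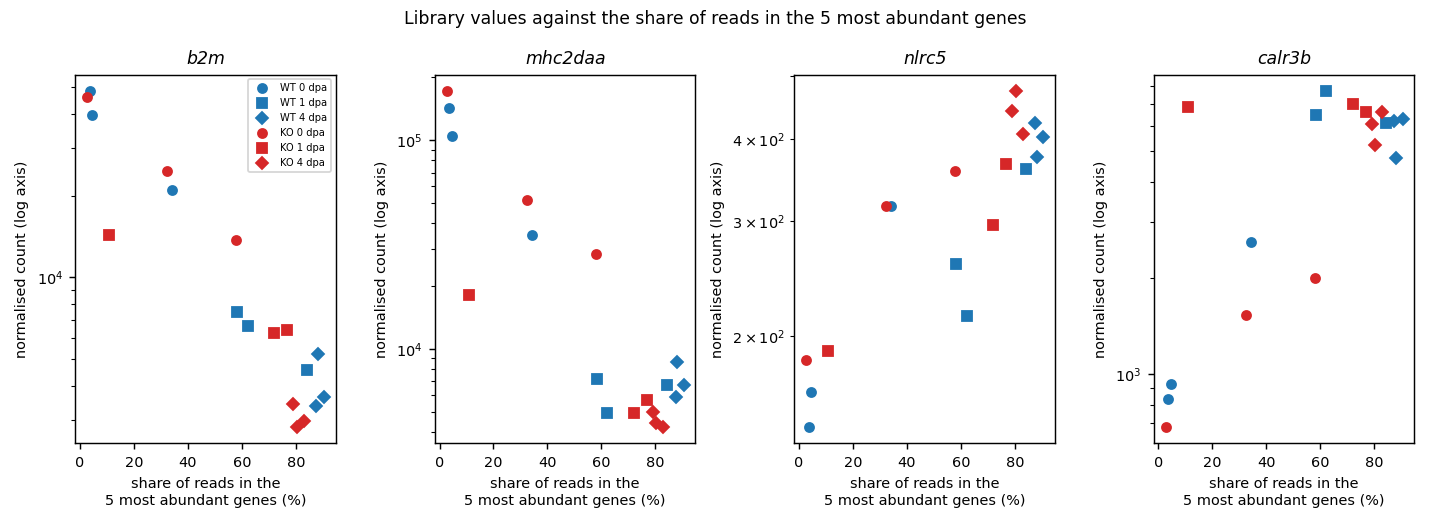
Normalised counts (log axis) of b2m, mhc2daa, nlrc5 and calr3b against the percentage of reads in the 5 most abundant genes, with 1 point per library, colour for genotype and shape for time. b2m and mhc2daa are highest in the low-share libraries at 0 dpa, and KO 1 dpa replicate 1, with a share of 10.9%, lies above the other 1 dpa libraries for both.

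The gene closest to b2m in rank over the 18 libraries was mhc1zba, with a Spearman correlation of 0.998. Next came 7 genes tied at 0.996, among them NSA2, a ribosome assembly factor, and fbxo2, and then ribosomal protein genes such as rpl32 and RPL22 at 0.994. The libraries share their time course and their read share, so these values describe likeness only.

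Other genes of peptide supply moved in 2 directions. Counts at 4 dpa, for these lists and the cell marker lists below, can be read against the shares of all tested genes. In the main test these were 29.6% falling and 25.9% rising in WT, and 25.7% and 23.3% in KO. Of 9 tested genes of the immunoproteasome and class I supply list, 4 rose and 4 fell in WT at 4 dpa, and 5 rose and 4 fell in KO. The falling genes were PSMB8, PSMB10, PSME1 and PSME2, the interferon-inducible proteasome parts, with WT log2 changes of -2.36, -1.72, -2.48 and -2.43. CANX, HSPA5 and PDIA3, chaperones of the endoplasmic reticulum, rose by 1.60, 1.06 and 0.51. PSMB9, psmb12 and psmb13a had no read in any library. On the class II route, ifi30a, a thiol reductase of antigen processing, fell at 4 dpa with log2 changes of -3.06 in WT and -2.99 in KO, and the endosomal protease gene CTSH fell with -2.54 and -2.05. LGMN, another endosomal protease, rose by 0.94 and 1.15. Of 9 tested genes on this route 3 rose and 1 fell at 1 dpa in WT, where 19.1% of all tested genes rose and 21.1% fell. In KO 4 rose and 1 fell at 1 dpa, against 15.4% and 13.9%. At 4 dpa 1 rose and 4 fell in WT, and 1 rose and 3 fell in KO. Of 15 genes of the interferon gamma list 7 fell and 3 rose at 4 dpa in each genotype. ifng1 had a mean of 21.6 in WT fins at 0 dpa and no read in WT at 4 dpa. ifngr1, a receptor chain, fell with log2 changes of -1.30 in WT and -1.65 in KO, and SOCS1, a feedback inhibitor, with -2.22 and -2.28.

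Marker genes of cells that present antigen moved beside the class II genes in part. Of 9 tested dendritic cell markers 6 fell and 0 rose at 4 dpa in WT and 5 fell in KO, and the summed list went from 2891 to 5066 in WT fins at 0 dpa to 1626 to 1829 at 1 dpa and 1395 to 1536 at 4 dpa. In KO it went from 2652 to 4583 to 1724 to 3254 and 1193 to 1604. Such a sum follows its most abundant entries. For this list and the B cell list below, the highest sums at 0 dpa in each genotype were in low-share libraries. The highest KO sums at 1 dpa were too. cd83, a marker of mature dendritic cells, fell at 4 dpa with log2 changes of -5.62 in WT and -4.70 in KO. At 1 dpa 0 of the 9 dendritic cell markers rose, while 5 fell in WT and 3 in KO. Of 14 macrophage markers 5 rose and 0 fell at 1 dpa in WT, where 19.1% of all tested genes rose and 21.1% fell. In KO 4 rose and 0 fell at 1 dpa, against 15.4% and 13.9%. At 4 dpa 3 macrophage markers rose and 4 fell in WT, and 4 rose and 2 fell in KO. csf1ra, the receptor of a macrophage growth factor, rose by 2.68 and 2.44, and the complement genes c1qb and c1qc fell in both genotypes. The pan-leucocyte gene ptprc had means of 1253, 1212 and 1018 in WT at 0, 1 and 4 dpa, with no change called.

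Of 8 B cell markers 2 fell and 1 rose at 4 dpa in WT, and 1 of each in KO, with cd37 falling in both and cd79a at 0 in all libraries; the summed list was 1315 to 3446 in WT fins at 0 dpa and 1029 to 1256 at 4 dpa. Of 12 genes of the T cell list 8 fell and 1 rose in WT at 4 dpa, and 5 fell and 1 rose in KO. However, 1 of the falling entries, polr1g, was matched through an older name and is a subunit of RNA polymerase I. The summed T cell list went the other way, with 3310 to 3920 in WT fins at 0 dpa and 4694 to 5224 at 4 dpa. In KO the sum was 3143 to 4177 at 0 dpa and 4621 to 4998 at 4 dpa. A sum follows its most abundant entries, so its rise does not describe most entries of this list. Which entries carried the rise was not tested, and polr1g is part of the sum. The rise is therefore not read as more T cells. cd8a and cd8b fell in both genotypes, and cd247 and cd247l were at 0 throughout. Of 6 neutrophil markers 2 rose and 2 fell at 4 dpa in WT, and 1 rose and 2 fell in KO. Of 4 endothelial markers 3 rose in WT and 4 in KO, and of 3 erythrocyte markers 1 rose in each genotype. Of 4 leucocyte markers 1 rose and 1 fell in WT and 1 fell in KO. When the low-share libraries were left out, 5 of the T cell list, 6 dendritic cell, 2 B cell and 3 macrophage markers fell in KO at 4 dpa. In the same order 1, 0, 1 and 6 rose, where 25.3% of all tested genes fell and 23.9% rose. In WT each of these lists then had fewer falling markers, with WT 0 dpa at 1 library. On the class II route 4 genes then rose and 3 fell in WT, in place of 1 and 4, and in KO 3 and 3, in place of 1 and 3. No gene of these lists was called between the genotypes. The part of these cell types in the fall of the MHC genes was not tested.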

How the data were processed

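Bulk RNA was sequenced from 18 pools of caudal fins. Per the labels' protocols, amplified cDNA was tagged with Tn5 and sequenced from both ends (DNBSEQ). Trimming and mapping used, per the submitters' processing notes, Trim Galore 0.6.7, cutadapt 3.5, STAR 2.7.10 and the danRer11 build. For the counting step, annotation and strandedness are not given in the sources used. The authors deposited a signal table of normalised counts. Dividing each library by its size factor was undone, and 100% of values came out whole within 0.001. Gene names came from the reference name tables, which pair 29201 of 32520 IDs with a symbol.

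The main test was limma 3.58.1 with trend (R 4.3.3) on log2(normalised count + 1), for the 22779 genes with at least 10 in at least 3 libraries, with a mean per group over all 18 libraries and Benjamini-Hochberg adjustment over all tested genes at 0.05. Intervals are 95% with the moderated degrees of freedom. A fold on this scale understates changes of low genes. Alternatives were a pseudocount of 5, no filter, TMM scaling, a replicate block, no low-share libraries, the share as covariate, edgeR 4.0.16 and DESeq2 1.42.0 on recovered reads, and each library left out. The fit was tested on simulated data. The labels call the pools biological replicates. Values in every library are given for the 12 members with the largest change called over time and a group mean of at least 20, for b2m, cd74a, cd74b, ciita, nlrc5, TAP1 and rfx5, and for the class I and class II genes with the highest group mean; those of mhc2dgb and calr3b were added after their values were seen. Members and gene lists were chosen with earlier results of these data known. List entries matched for 119 of 132.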

Additional observations from a re-analysis of the deposited data

Results flagged for a closer look

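The WT and KO libraries of ciita moved in opposite directions between 0 and 4 dpa. In WT every library at 4 dpa was below every 0 dpa library, which held for 30.5% of all tested genes. The WT log2 change was -0.57, a change not called without the low-share libraries. In KO every library at 4 dpa was above every 0 dpa library, which held for 28.7% of all tested genes. The nearest KO values were 190 at 4 dpa and 189 at 0 dpa, so the KO groups were barely apart. At 0 dpa the KO libraries lay below the WT ones, and at 4 dpa the genotypes overlapped. The share of all tested genes with both patterns at once is not given. The KO log2 difference was 0.31 and was not called. The interaction of genotype with time was 0.88 on the log2 scale (95% interval 0.26 to 1.502, limma adjusted p = 0.992 over all tested genes), so it was not called.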

How the results depend on the processing

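Between the genotypes, and for both interactions, 0 members were called under every alternative and with any library left out, except 3 at 4 dpa with the share covariate. WT 1 against 0 dpa gave 33 called members, 20 without the low-share libraries, 19 with the share covariate and 22 to 34 with 1 library left out. WT 4 against 0 dpa gave 38, then 25, 14 and 30 to 36. KO 1 against 0 dpa ranged from 15 to 25 with 1 library left out, and KO 4 against 0 dpa from 28 to 33. WT 4 against 1 dpa gave 1 in the main test, 0 with a pseudocount of 5, 0 with no filter, 7 without the low-share libraries (34.3% of all tested genes), 5 with the covariate (24.6%), 2 with DESeq2 (18.2%) and 0 to 1 with 1 library left out. KO 4 against 1 dpa gave 11, then 5 with no filter, 7 without the low-share libraries (29.9%), 7 with the covariate (32.1%) and 0 to 11 with 1 library left out.

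Of 139 member changes called over time, 67 kept their direction and call in all settings run. With the share covariate 5 changed sign: mhc1lca to 0.053 in WT at 1 dpa and 0.37 at 4 dpa, nlrc5 to -0.27, rfx5 to -0.11 and TAP1 to -0.15 in WT at 4 dpa; the cause was not tested. Whether replicate numbers pair the samples could not be told from correlations this spread out. Deviations of same-numbered libraries correlated from -0.61 to 0.74 with a median of 0.01 over 45 pairs. Libraries of different number gave -0.75 to 0.62 with a median of -0.01 over 90 pairs. A replicate block gave 32 and 38 called members in WT at 1 and 4 dpa against 0 dpa, 23 and 34 in KO, 1 and 9 for 4 against 1 dpa in WT and KO, and 0 between the genotypes.

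Depth limits WT at 4 dpa most, where 3 reads equal a normalised count of about 7.42 to 7.47. Without the low-share libraries WT 0 dpa rests on 1 library, which is assumed to vary like the other groups.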
